A study of Mus musculus with 10 samples.

Results

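In testis DNA of F2 mice, 1657 autosomal stretches of 1 kb carried 3 to 5 covered CpGs and little methylation, with no adjacent stretch of more than 10 covered CpGs. The genome was cut into 1 kb tiles, and a tile was taken when 3 to 5 distinct CpGs were covered in it, when neither adjacent tile had more than 10 covered CpGs, and when its level was at most 10%. These tiles, here called sparse unmethylated tiles for their number of covered CpGs, were chosen by their level in the control libraries alone, as methylated reads over all reads pooled over the 5 controls. They were 2.14% of the 77587 autosomal tiles that met the CpG criteria, and the series held 165978 tiles with at least 3 covered CpGs in all. The control levels are therefore given below as a description, and no finding rests on them.

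The libraries were made by reduced representation bisulfite sequencing (RRBS), in which an enzyme cuts DNA at CpG-containing sites, short fragments are sequenced, and unmethylated cytosines are read as thymines. The arsenic group had 5 libraries, whose labels give the treatment as arsenic-treated, and the control group had 5, labelled control. Both groups were testis DNA of mice that the library names place in an F2 generation. The labels give no strain, age, dose, route or treated ancestor, nor whether each library is a separate animal, so the spread behind a p-value is that between libraries and may be technical.

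In mammals most CpGs outside gene starts are methylated, in male germ cells as in somatic tissue. CpG-dense promoters, called CpG islands, are kept free of methylation, while CpG-poor DNA is usually methylated unless a bound factor or an active promoter or enhancer keeps it open. A testis holds germ cells at many stages beside Sertoli cells, hormone-making Leydig cells, smooth-muscle-like peritubular cells, vessels and immune cells, so a level is an average over all of them, and a share of cells cannot be told apart from a share of alleles. The following levels at gene starts count each gene once, by its lowest measured start tile, taken separately in arsenic and control libraries. They therefore lean low where a gene had several such tiles. Tiles at the starts of late spermatogenesis genes had a median pooled level of 2.82% in arsenic and 4.25% in control libraries (19 genes measured). Those at the starts of meiosis and germline genes had 14.7% in arsenic and 14.2% in control libraries (26 genes). Sertoli cell genes had 5.36% in arsenic and 6.0% in control libraries (10 genes), Leydig cell genes 3.0% in arsenic and 2.86% in control libraries (3 genes), and peritubular, vascular and immune genes 19% in arsenic and 18.7% in control libraries (4 genes). Starts of genes of blood, liver and other somatic tissue stood at 51.1% in arsenic and 53.9% in control libraries (5 genes). Those of all 9228 measured protein-coding genes stood at 2.06% in arsenic and 2.40% in control libraries.

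Library depth was 87658994 to 100355708 reads summed over cytosines in arsenic and 69771871 to 92434984 in control libraries. Control libraries 4 and 5 stood apart, with 16.9% and 18.8% of cytosines read as fully methylated, against 11.1% to 14.9% in the other 8 libraries. They also had the highest mean levels in unmethylated few-CpG tiles beside a dense tile, at 3.93% and 4.37%, against 3.28% to 3.73%, and the highest shares of sparse unmethylated tiles read as 0, at 23.0% and 21.1%, against 14.2% to 18.7%. Within the sparse unmethylated tiles the median number of read calls per tile was 191 to 235 across arsenic libraries and 156 to 205 across control libraries. No tile had fewer than 30 in any library. A tile read as 0 at the median depth of its library allows a level of up to 1.28% to 1.92%, taking 3 counts as the limit. This covers counting error only, since reads carry no molecular identifiers and nearby CpGs share reads.

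The DNA just upstream of the gene starts in 6 of these tiles is shown so that the CpG content can be read from the sequence itself. The bases are the 250 before the start on the strand of the gene, from RefSeq on GRCm38.p6, 5′ to 3′, and capitals mark the CpGs that the libraries covered. Apoa2 (plus strand, chr1:171221314-171221563) encodes an apolipoprotein of high-density lipoprotein, a liver product, and Celf3 (plus strand, chr3:94478045-94478294) an RNA-binding protein. Cyp2j6 (minus strand, chr4:96553652-96553901) encodes a cytochrome P450, Traf1 (minus strand, chr2:34961773-34962022) a signalling adaptor of tumour necrosis factor receptors, and Prokr1 (minus strand, chr6:87590744-87590993) a prokineticin receptor. Arhgap32 (plus strand, chr9:32032053-32032302) encodes a GTPase-activating protein and stands for the CpG-rich starts. Apoa2, Prokr1 and Arhgap32 belong to the tiles named by the rule below, while Celf3, Cyp2j6 and Traf1 were added after their values were seen.
Apoa2: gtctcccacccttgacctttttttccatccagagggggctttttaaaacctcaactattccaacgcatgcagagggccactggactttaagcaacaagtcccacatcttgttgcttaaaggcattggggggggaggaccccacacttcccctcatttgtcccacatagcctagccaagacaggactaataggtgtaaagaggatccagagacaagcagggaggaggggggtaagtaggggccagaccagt
Celf3: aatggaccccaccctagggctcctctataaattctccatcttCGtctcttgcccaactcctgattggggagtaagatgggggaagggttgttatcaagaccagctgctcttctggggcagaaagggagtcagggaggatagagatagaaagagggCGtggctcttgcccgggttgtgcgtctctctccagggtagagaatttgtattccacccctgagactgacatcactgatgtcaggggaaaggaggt
Cyp2j6: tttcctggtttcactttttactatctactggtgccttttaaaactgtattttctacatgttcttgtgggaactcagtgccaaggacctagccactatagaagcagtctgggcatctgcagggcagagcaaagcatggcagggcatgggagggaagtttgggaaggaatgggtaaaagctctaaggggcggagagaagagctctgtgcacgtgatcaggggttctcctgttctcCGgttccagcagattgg
Traf1: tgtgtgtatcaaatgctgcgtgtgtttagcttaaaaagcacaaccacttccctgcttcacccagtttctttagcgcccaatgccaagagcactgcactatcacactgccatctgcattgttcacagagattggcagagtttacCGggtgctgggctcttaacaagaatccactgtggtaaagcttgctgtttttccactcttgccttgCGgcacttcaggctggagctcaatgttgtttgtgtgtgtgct
Prokr1: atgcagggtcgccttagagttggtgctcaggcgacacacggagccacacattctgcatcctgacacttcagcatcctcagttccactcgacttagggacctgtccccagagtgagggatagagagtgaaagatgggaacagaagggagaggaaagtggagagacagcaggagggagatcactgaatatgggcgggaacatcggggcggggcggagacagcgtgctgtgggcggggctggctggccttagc
Arhgap32: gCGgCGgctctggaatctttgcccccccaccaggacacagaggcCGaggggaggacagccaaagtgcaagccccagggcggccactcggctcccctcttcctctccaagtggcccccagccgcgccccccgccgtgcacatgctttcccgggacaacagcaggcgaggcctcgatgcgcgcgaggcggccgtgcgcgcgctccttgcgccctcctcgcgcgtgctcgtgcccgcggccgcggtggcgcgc

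In these 250 bases Apoa2 held 1 CpG, Cyp2j6 held 3, Celf3 and Traf1 held 4 each, Prokr1 held 10 and Arhgap32 held 31. The libraries covered 2 each of those of Celf3 and Traf1, 1 of Cyp2j6 and 3 of Arhgap32, but none of Apoa2 or Prokr1, whose covered CpGs lay downstream of the start. The Apoa2 tile thus had a start with hardly any CpG to methylate, while the Arhgap32 tile was few in covered CpGs and not in CpGs.

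Of the 1657 tiles, 497 had 3 covered CpGs, 555 had 4 and 605 had 5, and together they held 6736 CpGs on 9084 cytosines. The covered CpGs of a tile sat close together, with a median of 110 bp between the first and the last (quartiles 64 and 156 bp), so a level describes a short stretch and not the whole 1 kb. Pooled control levels, which chose the tiles, had a median of 4.21% (quartiles 2.22 and 6.88%), and 33 tiles had no methylated read in any control library. The 3 tiles nearest inside the limit stood at 10% in the pooled controls and had pooled arsenic levels of 5.77, 9.91 and 4.41%. The 3 nearest outside stood at 10.01 to 10.02% in the pooled controls and at 10.9, 8.33 and 7.63% in the pooled arsenic libraries, so the limit cut through a continuous range of levels.

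The arsenic libraries had no part in the choice, and the tiles were unmethylated in them too. The pooled arsenic level had a median of 3.85% (quartiles 2.04 and 6.63%). It was at most 10% in 1529 of the 1657 tiles (92.3%), above 10% in 128 and above 20% in 3. Every single arsenic library was at or below 10% in 1066 tiles (64.3%), and 22 tiles had no methylated read in any of the 5. Applied to the arsenic libraries, the same rule found 1772 tiles, of which 1529 were shared, which is 92.3% of the control-chosen and 86.3% of the arsenic-chosen tiles.

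**Figure D1:**
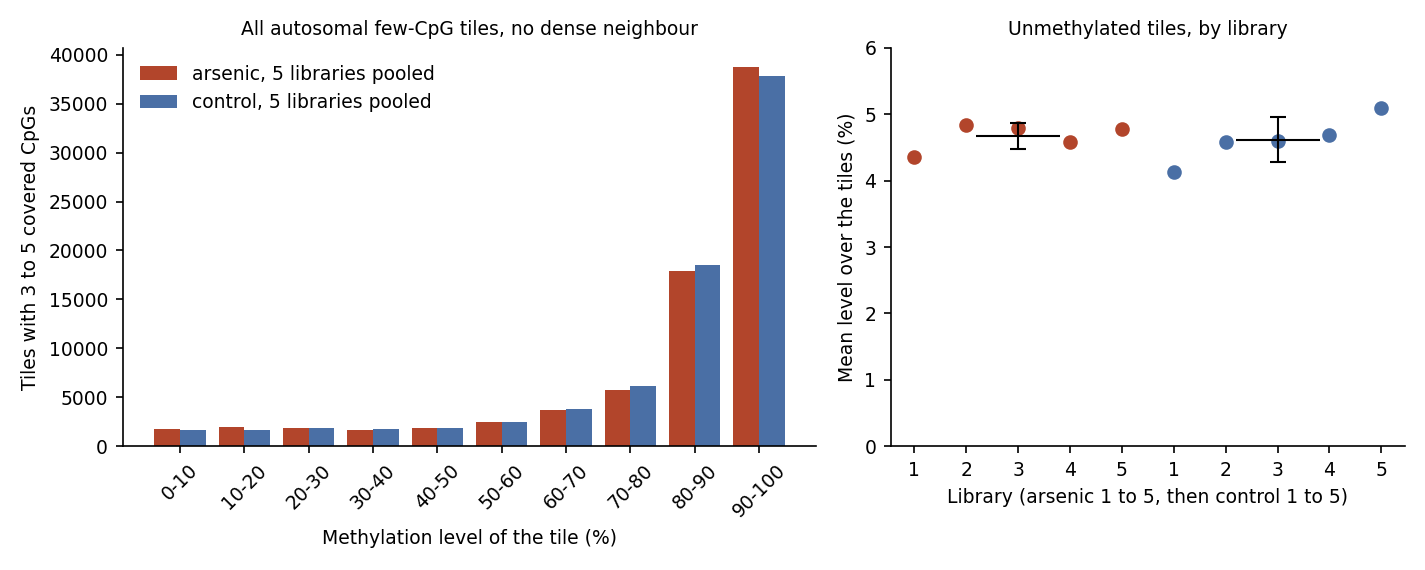
Left, number of autosomal tiles with 3 to 5 covered CpGs and no dense neighbour by methylation level in steps of 10 points, pooled over the 5 arsenic (red) or 5 control (blue) libraries. Right, mean level over the 1657 sparse unmethylated tiles in each library, with bars for the mean and SD of 5 libraries. Most tiles lie above 80% in both groups, and the library means of the unmethylated ones lie between 4.13 and 5.09%.

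The mean level over the tiles was 4.36, 4.84, 4.79, 4.57 and 4.78% in arsenic libraries 1 to 5, against 4.13, 4.58, 4.59, 4.69 and 5.09% in control libraries 1 to 5. The groups overlapped, at 4.67% ± 0.200 in arsenic and 4.62% ± 0.343 in control libraries (SD, n = 5 each), and the difference of 0.0514 points was smaller than either SD. It turned to -0.0708 points without control library 1, and because control levels were capped by the choice, no direction is read from it. Tiles read as 0 made up 16.8% ± 2.0 of the set in arsenic and 19.4% ± 2.58 in control libraries. Control libraries 1 to 3 had 16.8, 18.1 and 17.9%, within the arsenic range of 14.2 to 18.7%, and control libraries 4 and 5 lay above it. Those 2 libraries had a median of 156 and 163 read calls per tile, and control library 2, at 18.1%, had 164. The part of depth in these shares was not tested.

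Single tiles varied more than the mean. The median SD between libraries of a tile was 2.51 points in arsenic and 2.95 points in control libraries. Among the CpGs, 803 of 6736 (11.9%) had no methylated read in the pooled arsenic libraries, 934 (13.9%) were above 10% and 109 (1.62%) above 20%. The 109 lay in 96 tiles, 88 of which held exactly 1 such CpG, and 31 of the 109 were above 20% in the control libraries as well.

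Tiles were compared between arsenic and control with a quasi-binomial model across all 165978 tiles, with Benjamini-Hochberg adjustment over them. To be called, a tile needed 10 points or more between the groups and an adjusted p below 0.05. Of all tiles 0% were called, and 0 of the 1657 sparse unmethylated tiles, whose lowest adjusted p was 0.808. At an unadjusted p under 0.05, 57 of them (3.44%) were higher in arsenic, against 2.47% of all tiles, and 44 (2.66%) were lower, against 3.34% of all tiles. The 5 arsenic libraries all lay above the 5 control libraries in 8 of the tiles, against 0.349% of all tiles, and all below in 0, against 0.483% of all tiles. Limma on log2 ratios called 0 of them, against 1 of all 165978 tiles. It gave 123 of the 1657 an unadjusted p under 0.05, against 8529 of all tiles. A binomial test that ignores the spread between libraries called 6 of them, against 1986 of all tiles. Since control levels chose the tiles, nothing is read from these counts.

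The tiles just beside them were tested in the same fit. Leaving out neighbours that belonged to the set also removed tiles by their control level, so no direction is read from those that remained. Of these 720 neighbours with at least 3 CpGs, 0 were called, with a lowest adjusted p of 0.808. At an unadjusted p under 0.05, 23 (3.19%) were higher in arsenic, beside 2.47% of all tiles, and 28 (3.89%) were lower, beside 3.34%. With limma on log2 ratios 0 neighbours were called and 49 had an unadjusted p under 0.05, so differences of the neighbours were not detectable at this number of libraries.

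Gene starts lay in or near a large part of the tiles. Distance was counted from the tile's nearer edge to a start in RefSeq, over the 1612 tiles outside chromosome 18, whose starts were not used here. Starts of some other genes, such as Myh11, were missing too, so a tile far from a used start can lie at another. The Myh11 tile lay 188 bp from an end of that gene, and its nearest used start was 25.3 kb away, at Cep20. A start lay inside the tile in 350 (21.7%), against 1.40% of the 73325 few-CpG tiles above 10% in control on the same chromosomes. A start lay within 1 kb in 652 (40.4%), against 3.88%. In few-CpG unmethylated tiles beside a dense tile, the shares were 15.6% inside and 64.2% within 1 kb. These shares describe the tiles and were not tested.

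A large group lay far from any start used here. Of the 1612 tiles, 648 (40.2%) were more than 10 kb from such a start and 116 (7.20%) more than 100 kb. The shares were 73.5% and 18.4% of the few-CpG tiles above 10%, and 18.7% and 5.35% of unmethylated few-CpG tiles beside a dense tile. By the ends of protein-coding genes, 661 of 1657 tiles (39.9%) had one within 1 kb, against 5.30% of few-CpG tiles above 10%. Another 364 (22.0%, against 46.1%) lay inside a protein-coding gene away from its ends. The other 632 (38.1%, against 48.6%) lay outside protein-coding genes and away from their ends, and could still lie in noncoding genes. In unmethylated few-CpG tiles beside a dense tile the shares in the same order were 65.5, 22.3 and 12.2%. Exons, introns and repeats were not used here.

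Within the set, median levels differed with the distance to a start. The median arsenic level was 2.42% in tiles holding a start, 3.20% up to 1 kb, 4.29% from 1 to 10 kb, 4.90% from 10 to 100 kb and 5.11% beyond. In control libraries, whose levels chose the tiles, the medians were 2.76, 3.55, 4.55, 5.14 and 5.78% in the same order of distance.

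**Figure D2:**
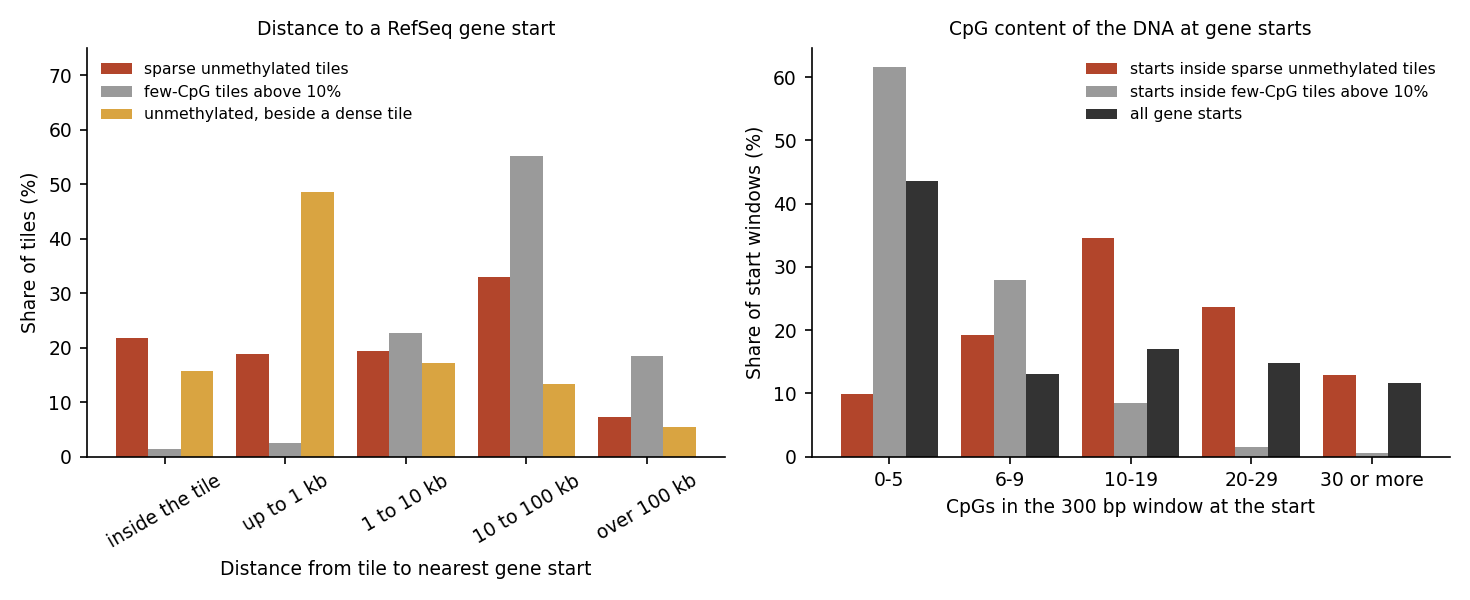
Left, share of tiles by distance from the tile to the nearest gene start used here. Tiles are sparse unmethylated tiles (red), few-CpG tiles above 10% (grey) and unmethylated few-CpG tiles beside a dense tile (yellow). Right, share of 300 bp start windows by their number of CpGs, for starts inside sparse unmethylated tiles (red), starts inside few-CpG tiles above 10% (grey) and all gene starts (black). A start is inside 21.7% of the red tiles and 1.40% of the grey ones, and 71.0% of the red starts have 10 or more CpGs in the window.

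Most of those starts were not poor in CpGs by their sequence. RefSeq windows of 300 bp, 250 before and 50 after the start, were read for the 428 starts of 386 genes inside the tiles. They held a median of 15 CpGs (quartiles 8 and 23) at 58.7% GC, against 5 CpGs (3 and 7) at 50.7% GC for 1108 starts in few-CpG tiles above 10%, and 7 (3 and 20) over all 32851 starts. Windows with 10 or more CpGs numbered 304 (71.0%), against 10.5% in few-CpG tiles above 10% and 43.5% of all starts. In unmethylated few-CpG tiles beside a dense tile the median was 19 CpGs and this share 79.8%. Of 5882 CpGs that lay in both a window and its tile, the libraries covered 543 (9.23%). The share was 23.3% in few-CpG tiles above 10% and 6.56% in unmethylated few-CpG tiles beside a dense tile. Tiles of the set that held a start were therefore few in covered CpGs, and in the main not few in CpGs of the sequence. For tiles without a start the sequence was not used here. Covered positions in start windows, counted once for each window they fell in, numbered 2179. All were on the letters CG, so build and strand matched.

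Short motifs were counted in the same windows. The GC box, GGGCGG on either strand, was in 53.3% of the windows, against 16.2% in few-CpG tiles above 10% and 35.7% of all starts. Among windows with 10 or more CpGs it was in 67.4%, against 42.2% and 69.8%, and among those with fewer it was in 18.5%, against 13.2% and 9.42%. An Ets-type motif, CCGGAAG, was in 13.1%, against 5.42% and 8.86%. Among windows with 10 or more CpGs it was in 15.1%, against 5.17% and 17.3%, and among those with fewer it was in 8.06%, against 5.44% and 2.39%. The motif overlaps the RRBS site CCGG, which was in 77.6%, against 56.8% and 52.8%. With 10 or more CpGs the site was in 86.5%, against 68.1% and 88.4%. With fewer it was in 55.6%, against 55.4% and 25.4%. The TATA box letters TATAAA were in 5.61%, against 14.4% and 13.6%. With 10 or more CpGs they were in 4.28%, against 8.62% and 5.63%, and with fewer in 8.87%, against 15.1% and 19.8%. The cyclic AMP response element TGACGTCA was in 1.64%, against 1.44% and 1.79%, and the partial X-box GTTGCCA in 5.61%, against 6.23% and 4.38%. The element's part TGACG was in 25.2%, against 15.8% and 20.8%, and the E-box CACGTG in 8.88%, against 4.96% and 7.15%. With 10 or more CpGs they were in 30.3%, against 29.3% and 33.1%, and in 9.87%, against 9.48% and 10.9%. With fewer they were in 12.9%, against 14.2% and 11.3%, and in 6.45%, against 4.44% and 4.29%. The A-MYB-type motif AACNGTC, with N any base, was in 6.78%, against 9.48% and 8.01%. In unmethylated few-CpG tiles beside a dense tile the GC box was in 62.9%, the Ets-type motif in 12.1%, CCGG in 76.8% and TATAAA in 5.15%. There TGACGTCA was in 3.31%, GTTGCCA in 4.78%, TGACG in 27.6%, CACGTG in 6.99% and AACNGTC in 8.09%. A match is a run of letters and not a site in use.

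A minority of the starts was poor in CpGs. In 42 windows (9.81%), in 40 tiles, there were 5 or fewer CpGs, and 27 of the 42 belonged to protein-coding genes. Pooled levels of these tiles ranged between 0 and 13.1% in arsenic and between 0 and 9.91% in control libraries, and the median arsenic level was 4.11%, against 1.40% in tiles whose start window held 30 or more CpGs. The genes below were picked after their values were seen, for their known roles.

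Several of them serve the immune system. The Traf1 tile had 4.07, 3.54, 5.10, 8.49 and 3.78% in arsenic libraries 1 to 5, against 10.2, 11.0, 11.6, 4.81 and 11.0% in control libraries 1 to 5. Control library 4 lay within the arsenic range and the other controls above it. H2-Aa, a chain of the class II antigen-presenting molecule, averaged 3.89% ± 1.92 in arsenic and 3.91% ± 2.12 in control libraries (SD, n = 5 each). Stat4, a transcription factor of interleukin-12 signalling, averaged 2.79% ± 2.55 in arsenic and 5.65% ± 1.19 in control libraries. The Il6 tile, at the cytokine interleukin-6, was uneven in both groups, with 14.8, 5.56, 2.04, 9.25 and 17% in arsenic libraries, against 0, 0, 9.38, 0 and 14.3% in control libraries.

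Others act in metabolism, transport and the nervous system. Slc7a11, the cystine transporter that feeds glutathione synthesis, averaged 2.03% ± 1.33 in arsenic and 2.79% ± 1.51 in control libraries. Hfe, a regulator of iron uptake, averaged 5.22% ± 3.66 in arsenic and 5.22% ± 2.61 in control libraries, with 2 CpGs in its start window. Cyp2j6 averaged 2.62% ± 1.29 in arsenic and 3.32% ± 2.86 in control libraries. Oprm1, the mu opioid receptor, averaged 1.69% ± 2.26 in arsenic and 4.34% ± 3.15 in control libraries, and Celf3 4.95% ± 2.61 in arsenic and 5.41% ± 4.98 in control libraries. For each of these genes the libraries of the groups overlapped.

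Apoa2 was the only gene of the blood, liver and other somatic list with a start near such a tile. Its tile (chr1:171221001-171222000) had 3 covered CpGs, 408 to 428 bp downstream of the start. It read 1.05, 2.11, 0.833, 0 and 3.95% in arsenic libraries 1 to 5, against 0 in each control library, at 44 to 130 read calls per library. The tile to its left was methylated, at 78.5% in arsenic and 80.5% in control libraries, and the one to its right was not, at 2.22% in arsenic and 1.30% in control libraries. The methylated tile is on the upstream side of the gene, and the arsenic values overlapped the control ones at 0.

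Genes that mark the cell types of the testis were counted near the tiles, beside the share of all genes. Within 1 kb of a tile of the set lay the start of 0 of 48 late spermatogenesis genes, 0 of 43 meiosis and germline genes and 0 of 12 Sertoli cell genes with an autosomal start. The same held for 2 of 11 Leydig cell genes, 1 of 11 peritubular, vascular and immune genes and 1 of 21 of blood, liver and other somatic tissue, beside 681 of 25748 genes in all (2.64%). Few-CpG tiles above 10% lay near 5 of the 48, 7 of the 43, 1 of the 12, 2 of the 11, 2 of the 11 and 4 of the 21, beside 10.4% of all genes. The lists are short, and nothing is read from a count of 0 beside these shares.

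The Leydig cell genes were Insl3, whose hormone guides descent of the testis, and Prlr, the prolactin receptor. The tile near Insl3 (chr8:71690001-71691000) lay 749 bp from its start and inside Jak3, a kinase gene of cytokine signalling, which ends in it. It averaged 8.35% ± 4.76 in arsenic and 9.93% ± 3.39 in control libraries. The Prlr tile (chr15:10178001-10179000), 763 bp from the start and inside the gene, averaged 7.20% ± 3.89 in arsenic and 8.76% ± 4.18 in control libraries. Its left neighbour, with 9 CpGs, stood at 3.0% in arsenic and 2.86% in control libraries.

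Cd34, a surface protein of blood progenitors and vessel lining, had a tile inside the gene (chr1:194939001-194940000), 180 bp from the start. It read 0, 0, 0.873, 7.80 and 0.775% in arsenic libraries 1 to 5, against 0, 5.37, 0, 1.94 and 13.0% in control libraries 1 to 5. Most libraries were near 0 and 1 or 2 of each group were not. Myh11, the myosin of smooth muscle, had a tile (chr16:14291001-14292000) inside the gene, 188 bp from an end whose strand was not used here. It averaged 5.26% ± 5.87 in arsenic and 3.59% ± 2.13 in control libraries, and arsenic library 4 alone stood at 15.7%.

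Some of the tiles overlapped genes of small RNAs. Transfer RNA genes overlapped 8 of the 1657 tiles, against 6 of the 75930 few-CpG tiles above 10% and 8 of the 1448 unmethylated few-CpG tiles beside dense ones. Transfer RNA genes carry a promoter inside the transcribed sequence. Of the 8 tiles, 5 lay on chromosome 13, between the n-TRtct3 tile at chr13:21917001-21918000 and the n-TYgta3 tile at chr13:23425001-23426000. The 8 tiles had a median pooled level of 3.47% in arsenic and 3.47% in control libraries, where the 6 methylated ones had 63.4% in arsenic and 67.1% in control libraries. Small nuclear RNA genes overlapped 5 tiles (0.302%, against 0.0329% of few-CpG tiles above 10%), microRNA genes 5 (0.302%, against 0.0830%) and a small nucleolar RNA gene 1 (0.0604%, against 0.050%). In unmethylated few-CpG tiles beside dense ones the shares in the same order were 0.207, 0.207 and 0.0691%.

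The transfer RNA tiles differed among themselves. The n-TScga1 tile on chromosome 13 averaged 0.775% ± 0.60 in arsenic and 0.762% ± 0.515 in control libraries, and n-TRtct3 averaged 9.84% ± 3.61 in arsenic and 9.37% ± 3.13 in control libraries. Between them on the same chromosome lay n-TQctg1, at 3.56% ± 3.25 in arsenic and 5.08% ± 4.26 in control libraries. On chromosome 9, n-TEttc8 read 0 in every library but arsenic library 3, which stood at 23.1%.

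The 5 microRNA tiles lay at 4 genes, since Mir5625 spans a tile border. Mir203, best known from skin, averaged 2.84% ± 2.24 in arsenic and 1.28% ± 1.36 in control libraries. Mir125b-1 averaged 2.44% ± 1.94 in arsenic and 4.67% ± 4.28 in control libraries. Mir7685 was the highest of them, at 10.5% ± 3.79 in arsenic and 7.75% ± 3.27 in control libraries. The groups overlapped at each.

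Most measured neighbours were unmethylated as well, counting those that were themselves tiles of the set. Of the 1657 tiles, 823 had no neighbour with at least 3 covered CpGs, 738 had 1 and 96 had both. The neighbours numbered 930, counting a tile once for each tile of the set beside it, and had a median arsenic level of 5.32%, with 590 (63.4%) at or below 10% and 151 (16.2%) above 50%. Neighbours of few-CpG tiles above 10% were at or below 10% in 3.52%, and those of unmethylated few-CpG tiles beside dense ones in 87.3%. In all of these counts, neighbours from the same set were kept, although their control level had chosen them. Distinct neighbours outside the set of sparse unmethylated tiles numbered 720. The shares thus rest in part on the choice of tiles. Of the 96 tiles with both neighbours measured, 23 had both at or below 10% in arsenic and 4 had both above 50%.

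**Figure D3:**
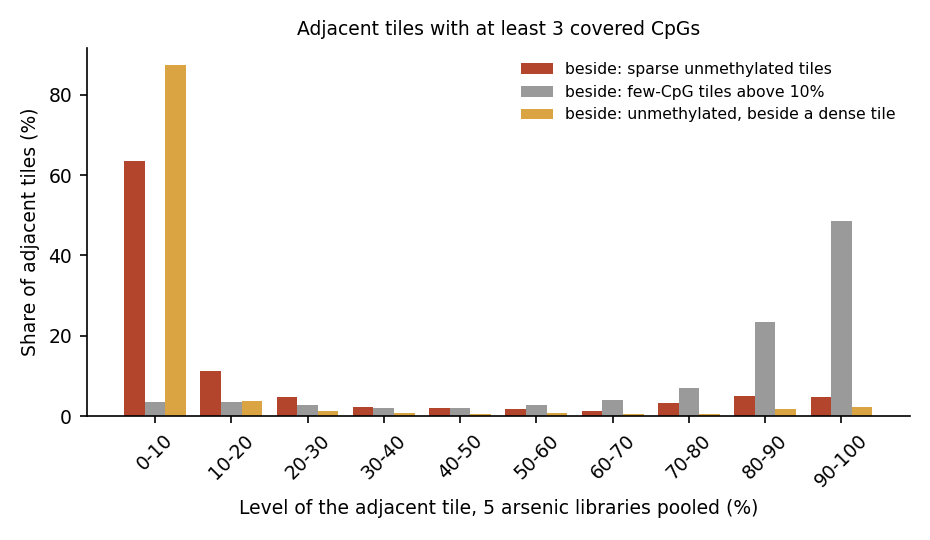
Share of adjacent tiles with at least 3 covered CpGs by their level, pooled over the 5 arsenic libraries, in steps of 10 points. Neighbours of sparse unmethylated tiles (red) are at or below 10% in 63.4%, those of few-CpG tiles above 10% (grey) in 3.52%, and those of unmethylated few-CpG tiles beside a dense tile (yellow) in 87.3%. Neighbours that belong to the same set are counted, so the shares rest in part on the choice of tiles.

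The sharpest borders were found by the gap between a tile and its 2 neighbours. At Prokr1 the tile holding the start (chr6:87590001-87591000) read 0.629, 4.49, 1.5, 0.840 and 0% in arsenic libraries 1 to 5, against 0, 0, 11.7, 1.45 and 1.0% in control libraries 1 to 5. Its left neighbour stood at 95% in arsenic and 91.7% in control libraries, and its right neighbour at 73.6% in arsenic and 71.6% in control libraries. All covered CpGs of the tile lay 177 to 446 bp downstream of the start. The unmethylated stretch at this gene thus sat between methylated tiles.

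Tiles with a large gap to their neighbours were also found away from protein-coding starts. A tile on chromosome 2 (chr2:167078001-167079000), 239 bp from the long noncoding RNA gene Gm39984, averaged 9.07% ± 1.97 in arsenic and 8.28% ± 2.98 in control libraries. Its neighbours stood at 90.5 and 77.6% in arsenic and at 92.8 and 80.9% in control libraries. A tile inside Chd5 (chr4:152350001-152351000), a chromatin remodeller gene, lay 11.3 kb from the start and averaged 8.28% ± 5.43 in arsenic and 6.06% ± 6.31 in control libraries. It sat between tiles at 50.7 and 79.2% in arsenic and at 49.9 and 76.5% in control libraries. A tile 8.33 kb from Pcbd1, an enzyme gene of pterin recycling, averaged 2.42% ± 1.33 in arsenic and 5.54% ± 2.42 in control libraries, beside a left neighbour at 93.8% in arsenic and 92.9% in control libraries and a right one at 29.1% in arsenic and 33.7% in control libraries.

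The most deeply read tiles more than 10 kb from any gene were a pair on chromosome 6 (chr6:16316001-16317000 and chr6:16317001-16318000), 77.8 kb and 78.8 kb from the nearest gene. At 1005 to 1914 read calls per library, the first averaged 2.59% ± 1.03 in arsenic and 3.49% ± 1.26 in control libraries, and the second 1.34% ± 0.541 in arsenic and 1.17% ± 0.519 in control libraries. Both were named for their depth, but reads without molecular identifiers need not be separate molecules, and overlap with repeats was not tested. They stayed low in all 5 arsenic libraries, while low pooled control levels were required by the choice. A tile on chromosome 15 (chr15:96011001-96012000), 35.5 kb from Ano6, averaged 12.7% ± 3.94 in arsenic and 7.66% ± 2.15 in control libraries, and one on chromosome 5 (chr5:33500001-33501000), 65.9 kb from the homeobox gene Nkx1-1, averaged 7.13% ± 2.60 in arsenic and 9.61% ± 1.77 in control libraries. A tile on chromosome 12 (chr12:10016001-10017000) averaged 7.56% ± 1.71 in arsenic and 7.86% ± 1.52 in control libraries.

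Tiles of the set formed 105 runs of 2 and 3 runs of 3, with at most 1 other tile between the tiles of a run. One run of 3 covered the starts of Anxa9, an annexin gene, and Cers2, a ceramide synthase gene, and its tiles averaged 0.576% ± 0.898, 3.68% ± 2.75 and 5.98% ± 2.35 in arsenic and 0.985% ± 1.64, 7.14% ± 3.10 and 5.39% ± 2.21 in control libraries.

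Another run of 3 lay inside Gsg1, a gene named for its link to germ cells. Its middle tile (chr6:135250001-135251000) read 22.4, 9.72, 16.5, 8.05 and 20.8% in arsenic libraries 1 to 5, against 4.60, 10.9, 4.44, 2.94 and 15.6% in control libraries 1 to 5. The groups overlapped, with 3 arsenic libraries above all controls. The tile before it averaged 7.41% ± 5.33 in arsenic and 2.60% ± 5.15 in control libraries, and the last of the run 1.72% ± 1.65 in arsenic and 1.92% ± 2.78 in control libraries. At Stat4 a pair of tiles, 1 of them holding the start, averaged 2.79% ± 2.55 and 2.39% ± 1.37 in arsenic and 5.65% ± 1.19 and 3.82% ± 3.38 in control libraries.

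The tiles with the lowest unadjusted p are given by value, since none was called and the control levels had been capped. Smpdl3b encodes a phosphodiesterase of the acid sphingomyelinase family, and its tile (chr4:132756001-132757000), inside the gene and 171 bp from the start, read 3.68, 3.42, 2.64, 4.93 and 4.17% in arsenic libraries 1 to 5, against 0.813, 2.36, 0, 0 and 0% in control libraries 1 to 5. The groups did not overlap, at levels that stayed under 5% throughout. Il22ra1 encodes a subunit of the interleukin-22 receptor, and its tile (chr4:135727001-135728000), 159 bp from the start, read 8.37, 12.8, 6.94, 17 and 16.4% in arsenic libraries, against 3.12, 5.76, 4.80, 4.72 and 9.8% in control libraries. Control library 5 lay within the arsenic range.

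A tile at an internal start of Fam214a (chr9:74976001-74977000) read 18.2, 14.3, 4.39, 1.82 and 9.68% in arsenic libraries, against 0, 0, 0, 0 and 1.04% in control libraries, at 42 to 142 read calls. The groups did not overlap, and the arsenic libraries ran from just above the controls to 18.2%. A tile on chromosome 13 (chr13:107600001-107601000), 4.35 kb from the long noncoding RNA gene Gm32090, averaged 8.62% ± 3.39 in arsenic and 3.01% ± 1.77 in control libraries without overlap. On chromosome 18, a tile 14.2 kb from Ctif averaged 16.6% ± 2.79 in arsenic and 8.65% ± 2.22 in control libraries without overlap, and one 11.4 kb from Sting1 read 0 in every control library and in 2 of the arsenic libraries.

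Of the tiles lower in arsenic, 2 adjacent ones lay in Nepro (chr16:44724001-44725000 and chr16:44725001-44726000). The first averaged 0.632% ± 0.474 in arsenic and 3.20% ± 2.10 in control libraries, and the second 0.508% ± 0.487 in arsenic and 4.36% ± 2.84 in control libraries. In both tiles control library 3 read as low as the arsenic libraries and the other 4 controls above them. The covered CpGs of the 2 tiles lie close to their shared border, so they are not independent observations.

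At Rwdd2b (chr16:87440001-87441000) the arsenic libraries read 0.412, 0.424, 0, 0.521 and 0%, against 18.2, 0, 8.73, 0 and 11.7% in control libraries, so 2 controls were unmethylated like the arsenic libraries. The Arhgap32 tile averaged 0.518% ± 0.806 in arsenic and 5.62% ± 4.32 in control libraries, and a tile on chromosome 3 (chr3:96401001-96402000), 218 bp from the transfer RNA gene n-TNgtt10, averaged 1.31% ± 1.25 in arsenic and 7.44% ± 4.85 in control libraries. Each of them had 1 control library inside the arsenic range. Near Cep41, a gene of the centrosome and cilium, a tile (chr6:30711001-30712000) averaged 5.79% ± 1.91 in arsenic and 9.91% ± 2.21 in control libraries. Since the choice capped the control levels, no test was drawn from these differences.

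**Figure D4:**
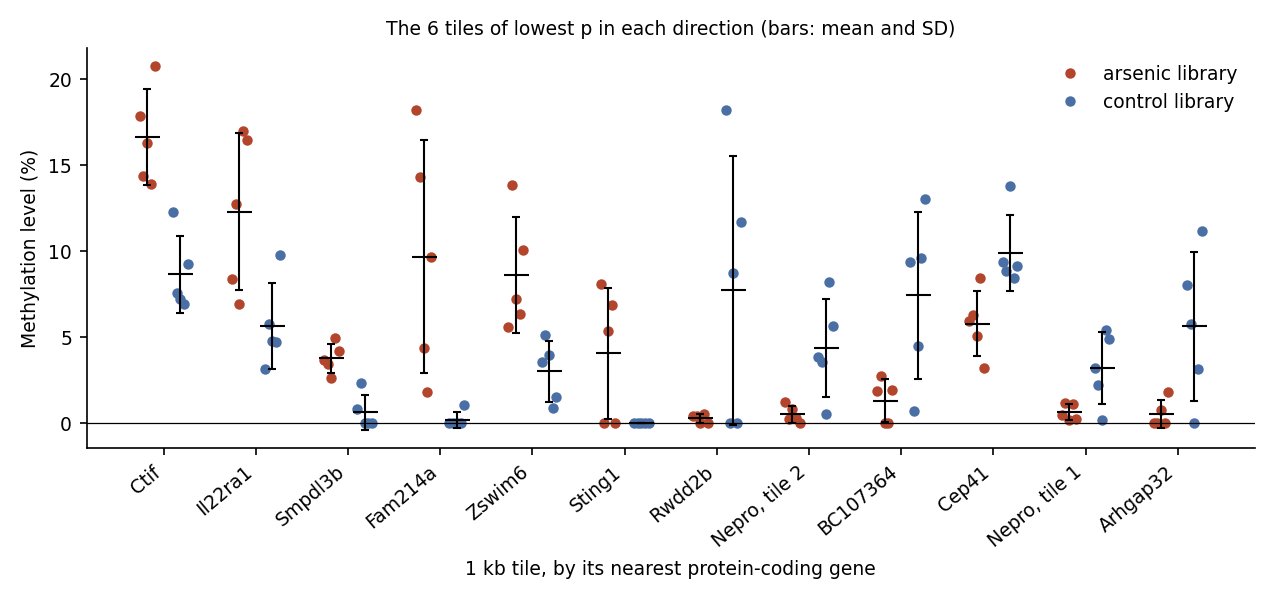
Methylation level in each arsenic (red, left of each pair) and control (blue, right) library for the 6 tiles of lowest unadjusted p in each direction, labelled by their nearest protein-coding gene. Black bars give the mean and SD of 5 libraries. The first 6 tiles are higher in arsenic and the last 6 lower, no tile was called, and the lowest adjusted p is 0.808.

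The tiles that were most methylated in arsenic lay away from genes and were uneven between libraries. A tile on chromosome 10 (chr10:110551001-110552000), 48.6 kb from the nearest gene and 95.3 kb from Nav3, read 28.6, 25, 26.2, 59.7 and 18.8% in arsenic libraries 1 to 5, against 23.1, 1.43, 5.98, 16.2 and 2.60% in control libraries 1 to 5. Control library 1 lay within the arsenic range. A tile 3.64 kb from Emx2, a homeobox gene of the urogenital system and brain (chr19:59469001-59470000), read 12.8, 15.7, 65.2, 4.44 and 21.3% in arsenic libraries, against 1.94, 1.5, 0, 4.90 and 7.06% in control libraries. Arsenic library 3 stood far above the rest, and without it the tile's difference between the group means was 10.5 points, against 20.8 points with it.

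The other 4 of these tiles had arsenic means of 18.2 to 23.6% and control means of 4.21 to 9.42%. A tile 9.34 kb from Tmem63c (chr12:87011001-87012000) averaged 18.2% ± 7.13 in arsenic and 5.88% ± 5.14 in control libraries, with 1 control library in the arsenic range. A tile 42.9 kb from the nearest gene on chromosome 2 (chr2:171789001-171790000) read 0, 47.9, 22.6, 35.7 and 12% in arsenic libraries, against 5.66, 7.84, 1.64, 5.88 and 0% in control libraries, at only 31 to 61 read calls each. A tile 14.6 kb from Gjb2, the gene of connexin 26, averaged 18.8% ± 13.6 in arsenic and 8.85% ± 9.36 in control libraries, and one 13.2 kb from 4921524J17Rik averaged 21.8% ± 9.74 in arsenic and 9.42% ± 8.34 in control libraries. These tiles were named for their high arsenic level, so the size of their difference is fixed in part by the choice.

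**Figure D5:**
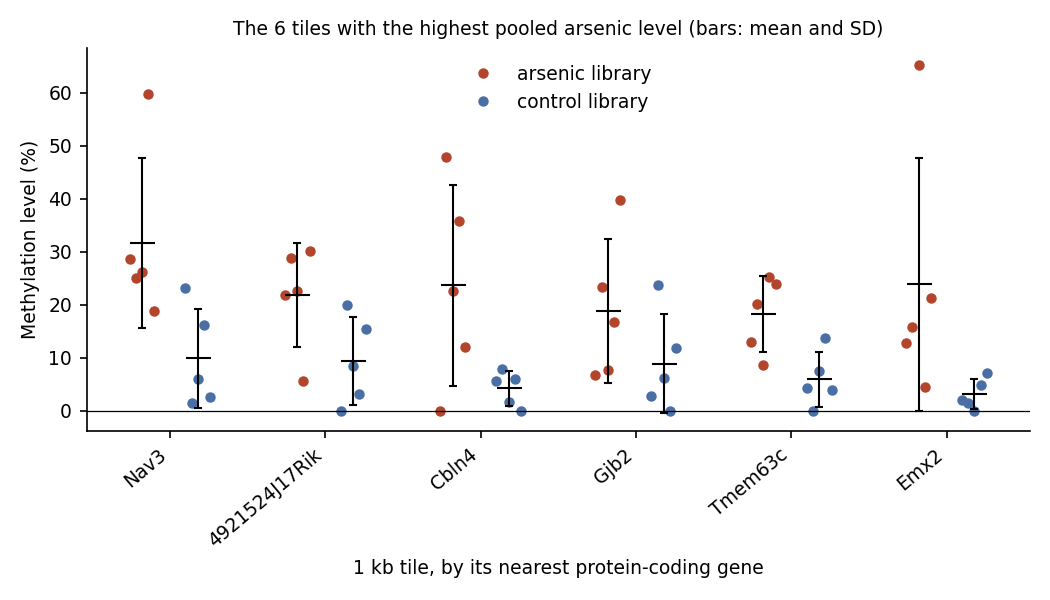
Methylation level in each arsenic (red, left of each pair) and control (blue, right) library for the 6 sparse unmethylated tiles with the highest pooled arsenic level, labelled by their nearest protein-coding gene. Black bars give the mean and SD of 5 libraries. Single arsenic libraries reach 59.7% near Nav3 and 65.2% near Emx2, while the others of the group are lower.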

How the data were processed

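Testis DNA of 5 arsenic and 5 control libraries was analysed from the table the authors deposited, which per the file headers holds raw read counts per cytosine in each library (total, methylated and unmethylated). Per the submitters' processing notes, the build was mm10 and the tools were methylKit 1.22.0, Bismark 0.22.3 and Trim Galore 0.6.5, whose settings the sources used here do not give. The lowest coverage in any library was 10 reads. Groups and replicate numbers came from the sample titles. Columns of samples that could not be mapped numbered 0.

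Strands of a CpG were merged, positions binned in tiles of 1000 bp, and levels taken as methylated over all reads. All 165978 tiles with at least 3 CpGs were fitted with a quasi-binomial logistic model with a group term, its dispersion squeezed as in limma and not under 1, an F test and Benjamini-Hochberg adjustment, and tested on simulated data. R 4.3.3, limma 3.58.1, Python 3.11.15, pandas 2.3.3, scipy 1.17.1 and numpy 2.4.6 were used. Gene positions and starts came from RefSeq on GRCm38.p6, the assembly behind mm10.

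The tiles and gene lists were chosen with earlier results of these data known. Named tiles were those near listed genes, the 6 of lowest unadjusted p in each direction, the 6 of highest arsenic level, the 6 most deeply read more than 10 kb from a gene, the 4 longest runs (1 of them is not reported here), the 3 on each side of the limit, and the 6 with the largest gap to both neighbours. Alternatives were other tests, a coverage of at least 20, tiles shifted by 500 bp, other limits and gene distances, a replicate block, and leaving out libraries.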

Additional observations from a re-analysis of the deposited data

Results flagged for a closer look

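Of 138 groups of 5 libraries checked for a library far from the others, 18 (13.0%) held one. The limit used gives about 1 in 20 by chance, but only for normally distributed values. Many of these levels lay near the lowest possible value, often with no methylated read in a library. Many of the tiles were also named for extreme or already seen values. The share is therefore not read as an excess over chance. Each library far from the others is given with the tile it concerns.

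Among tiles at a gene start, arsenic library 4 stood at 7.21% and arsenic library 5 at 4.80% in the pair of tiles at Stat4. Control library 3 stood at 11.7% at Prokr1, and control library 4 at 4.81% at Traf1, below the other controls. Control library 5 stood at 1.04% at Fam214a and at 1.72% at Pcdh20, a protocadherin gene with 4 CpGs in its start window, where the other controls read 0 at both. Zfp971, a zinc finger gene, read 0 in 9 libraries and 4.03% in control library 4.

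In tiles in or near genes, arsenic library 4 stood at 7.80% at Cd34 and at 15.7% at Myh11. Control library 5 stood at 11.8% in the first tile of the run in Gsg1. Control library 3 stood at 13.8% near Cep41.

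Away from genes, arsenic library 4 stood at 59.7% in the tile on chromosome 10 near Nav3, and arsenic library 3 at 65.2% in the tile on chromosome 19 near Emx2. Arsenic library 5 stood at 14.1% in a tile on chromosome 3 (chr3:95024001-95025000) just inside the limit.

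At transfer RNA genes, arsenic library 3 stood at 23.1% at n-TEttc8 and at 10.4% at n-TGacc1, and arsenic library 5 at 11.3% at n-TVaac2. Control library 3 stood at 13.8% at n-TYgta3.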

How the results depend on the processing

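The count of called tiles in the series was 0, with 9633 at an unadjusted p under 0.05. It was 0 without any single library, without control libraries 4 and 5, at a coverage of at least 20, and with a replicate block. It was 1 with limma on log2 ratios and 1 with tiles shifted by 500 bp, and 1986 with a binomial test on reads, which takes reads as independent and ignores the spread between libraries. That test called 6 of the sparse unmethylated tiles and 3 of their neighbours, against 0 of either by the quasi-binomial model, limma, or the model with a replicate block. Arsenic and control libraries share the numbers 1 to 5, but same-numbered libraries did not deviate together over tiles (r between -0.0126 and 0.0167), so the numbers were not taken as pairs.

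The number of tiles the rule finds was 953 at a control limit of 5%, 3317 at 20%, and 3027 at a coverage of at least 20, where dense tiles keep fewer CpGs. It stayed within 1160 and 1772 under the other rules and left-out libraries. The share at or below 10% in arsenic was 92.3%, and 95.4% at a coverage of at least 20, 99% at a limit of 5%, 96.7% when all 10 libraries chose the tiles, and 91.2 to 92.5% without single libraries. The difference of the mean level was 0.0514 points, -0.0708 to 0.170 without single libraries, -0.435 when all 10 libraries chose the tiles and -0.974 when the arsenic libraries did, the last added after seeing the data. Its sign thus differed between these settings, and no direction is read from it. The share near a gene end was 35.7% at 500 bp, 45% at 2000 bp and 52.0% with all genes of the table, against 39.9% within 1 kb of protein-coding genes. A replicate block leaves the difference of a named tile unchanged by arithmetic. Leaving out 1 library of 5 cannot move it by 1 SD between libraries, so neither setting tests these differences. At a coverage of at least 20, differences moved by less than 1 SD for the 21 of the 52 named tiles that could be measured. Without a single library, 1 to 5 of the 52 differences changed sign.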

Other observations

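The sparse unmethylated tiles were spread over all autosomes. They made up between 1.46% of the few-CpG tiles of chromosome 14 and 2.89% of those of chromosome 7, with 2.85% on chromosome 19 and 2.74% on chromosome 13. Long noncoding RNA genes overlapped 273 of the 1657 tiles (16.5%), against 10.9% of few-CpG tiles above 10%, and pseudogenes 17 (1.03%), against 1.46%. In unmethylated few-CpG tiles beside a dense tile the shares were 14.6% and 0.345%. Starts of 140 of 9291 long noncoding RNA genes (1.51%) lay within 1 kb of a tile of the set, beside 541 of 16456 protein-coding genes (3.29%).

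Counts by gene family are given beside the 2.64% of all genes (681 of 25748), with no test. Genes with Zfp names, mostly zinc finger proteins of transcription, had 25 of 330 starts (7.58%) within 1 kb of one, among them Zfp14, Zfp180 and Zfp971. This family was picked after its values were seen. Olfactory, vomeronasal and taste receptor genes had 0 of 1294, keratins and keratin-associated proteins 0 of 36 and beta-defensins 0 of 29. Genes known only by the names of testis cDNA clones had 10 of 857 (1.17%), and genes with Tex and Spata names 1 of 60, which was Tex10.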
